A study of Quercus ilex with 12 samples.

Results

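The 100 most abundant contigs in leaves of *Quercus ilex* (holm oak) were taken as those with the highest mean TPM over 12 leaf libraries, out of 47568 contigs with values. TPM divides the reads of a contig by its effective length and scales every library to the same sum, so it measures the share of a transcript in the leaf pool. The contigs were selected on mean TPM, so their abundance is given as a description without a test. The mean was taken over all 4 groups, so a contig could enter the list through the groups where it was high: 25 of the 100 had a mean below 859.8 TPM, the level of the last contig on the list, in the control libraries, and 15 had one in the drought libraries. Differences between groups over the 100 are therefore not independent of the choice, and counts of changed contigs are set beside the share over all contigs as a description only.

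Seedlings aged 6 months were either deprived of irrigation or kept well watered, and leaves were collected at 2 samplings. The groups were drought at the first sampling (S1D), its watered control (S1C), drought at the second sampling (S2D) and its watered control (S2C), with 3 replicates in each. The sample labels give 20 days for S1D and S1C and 25 days for S2D and S2C, whereas the series description gives 17 and 24 days of drought. No genotype or seed source was given, and the labels speak of biological replicates without tying them to single plants.

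Leaf mRNA pools are usually dominated by a small number of nuclear transcripts of photosynthesis, such as those of the small subunit of Rubisco and of the chlorophyll a/b-binding proteins of the light-harvesting complexes. Water deficit commonly lowers many of these and raises transcripts of protective proteins such as dehydrins and other late embryogenesis abundant proteins. The library kit selects mRNA. The files used here pair no contig with a gene name, a description or a sequence, so none of the 100 contigs could be given a role, none could be matched to a leaf marker, and each is named by its identifier.

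Depth was between 11239487 and 33384307 estimated counts per library. All 100 contigs were counted in every library, with a lowest value of 44 counts and a median, over the contigs, of 3956 counts in the library where each was lowest. On the 100 contigs, 7 of the 12 libraries were closer to a library of another group than to any of their own, and 3 of these departed from their group by the most. Each library had more libraries of other groups than of its own to match, which favours a match outside, so the number is a description only. Some best matches were of the same treatment at the other sampling, as with the controls S1C replicate 2 and S2C replicate 2. On log2 TPM over the 100 contigs, S2D replicate 3 had a best correlation of -0.022 with another S2D library and 0.863 with S1C replicate 1. S1C replicate 2 had 0.507 within S1C and 0.782 with S2C replicate 2, and S2C replicate 2 had 0.363 within S2C. In the other 4, S1D replicates 2 and 3, S1C replicate 1 and S2D replicate 2, the gap between the correlations was at most 0.0836. Over all 33602 contigs that passed the low-count filter, 5 libraries were closer to another group, the same 3 with the largest gaps, their correlations within and outside the group being 0.853 and 0.893 for S2D replicate 3, 0.843 and 0.892 for S1C replicate 2, and 0.864 and 0.892 for S2C replicate 2. S1C replicate 1 and S1D replicate 3 had gaps of 0.00645 and 0.000108. The labels were kept, and counts of changed contigs are given with and without the 3 libraries. Those 3 were picked for their weak match to their own group, so leaving them out tends to narrow the spread within groups. Without them S1C, S2C and S2D have 2 libraries each, and nothing is read from the larger number of calls then made.

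The 100 contigs are 0.210% of all contigs and held 18.5% of TPM on average, with 11.7% in the lowest library and 26.6% in the highest. The leading contig alone held 0.858%, the first 5 held 3.22% and the first 10 held 5.10% on average. Widening the list to 1000 contigs brought the mean share to 46.4%, and 5000 contigs held 75.9%. Between 716 and 1253 contigs were needed to reach 50% of TPM in a library. Mean TPM ran from 8583 for contig-398000009 to 860 for contig-2372000011, a 9.98-fold range, with a median of 1378. Of the 100, 5 contigs averaged over 5000 TPM and 28 over 2000 TPM. The boundary was shallow: contig-2372000011 at rank 100 averaged 859.8 TPM, and contig-261000012, the first one outside, averaged 858.5 TPM.

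The share held by the 100 contigs was 23.5, 22.5 and 26.6% of TPM in S1D, against 16.8, 17.1 and 12.8% in S1C. The averages were 24.2 ± 2.14% in S1D and 15.6 ± 2.39% in S1C (SD, n = 3 each), and every S1D library lay above every S1C library. The share was 18.5, 21.3 and 15.7% in S2D, against 11.7, 22.3 and 13.7% in S2C, averaging 18.5 ± 2.83% in S2D and 15.9 ± 5.61% in S2C (SD, n = 3 each). The S2D and S2C libraries overlapped, and S2C replicate 2 held the highest share of these 6. Leaving out S2D replicate 3 put the mean share at 19.9% in S2D, and leaving out S2C replicate 2 put it at 12.7% in S2C, while without S1C replicate 2 the S1C mean was 14.8%. Leaving out S2D replicate 1 or 2 put the S2D mean at 18.5 or 17.1%. Without S2C replicate 1 or 3 the S2C mean was 18.0 or 17.0%, and without S1C replicate 1 or 3 the S1C mean was 15.0 or 17.0%. The gap between S2D and S2C thus widened or narrowed with the library left out. These shares depend on the list, which was fixed over all libraries. Each library's own first 100 contigs held 25.9 ± 2.24% in S1D and 18.4 ± 1.33% in S1C (SD, n = 3 each), again without overlap. They held 21.2 ± 1.48% in S2D and 20.5 ± 2.63% in S2C (SD, n = 3 each), which were close. In these bulk samples, fewer cells of a type and less RNA per cell cannot be told apart.

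**Figure D1:**
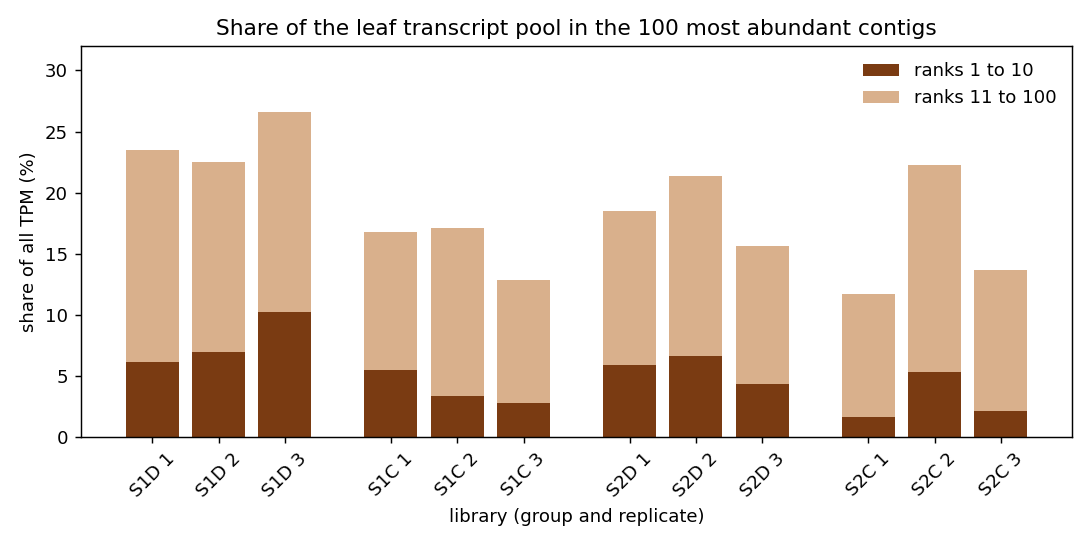
Percentage of TPM held by the 100 most abundant contigs in each of the 12 libraries, grouped as S1D, S1C, S2D and S2C, with bars stacked from the first 10 contigs and the other 90. The S1D libraries lie between 22.5 and 26.6% and the S1C libraries between 12.8 and 17.1%, whereas S2C replicate 2, at 22.3%, lies above every S2D library.

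The difference at the first sampling was spread over many contigs, a few of which contributed most. The 100 contigs held 8.62 percentage points more of TPM in S1D than in S1C, of which 66 contigs with a higher mean in S1D contributed 11.3 points and 34 with a lower mean contributed -2.73 points. Contig-2202000017, contig-1415000019 and contig-5563000022, picked out here for the size of their contribution, together made up 3.53 points. At the second sampling the 100 contigs held 2.61 points more in S2D than in S2C, with 62 contigs higher and 38 lower in mean TPM. The rises came to 6.72 points and the falls to -4.11 points. The 3 largest rises, of contig-398000009, contig-2202000017 and contig-186000024, together made up 2.07 points. Higher and lower means were not counted over all contigs, so these numbers are a description only. In edgeR's fit to the estimated counts, 69 of the 100 had an effect above 0 at the first sampling and 52 at the second. The first 10 contigs held 6.16, 6.96 and 10.3% of TPM in S1D, against 5.46, 3.37 and 2.79% in S1C, and 5.95, 6.61 and 4.34% in S2D, against 1.68, 5.37 and 2.18% in S2C. The other 90 held 16.4% on average in S1D and 11.7% in S1C, and 12.9% in S2D and 12.8% in S2C.

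The share depended on whether length was divided out. As a percentage of the estimated counts, the 100 contigs averaged 15.8% in S1D and 11.0% in S1C, and 12.1% in S2D and 12.3% in S2C. At the second sampling the order of the group means was the other way round on counts than on TPM, but by less than the SD of 1.52 in S2D and 6.36 in S2C. The S2C libraries had 7.75, 19.5 and 9.55% of counts and the S2D libraries 11.6, 13.8 and 10.9%, so this order rested on S2C replicate 2. S2C replicate 2 had the highest share of counts in its group, and contig-46000016, a contig of 3103 bases chosen after its values were seen, took 4.80% of the counts of that library (95% Wilson interval 4.79 to 4.81%, counting error only). That contig had 14485 TPM in S2C replicate 2, against 359 and 1596 TPM in the other S2C libraries, and 568, 630 and 375 TPM in S2D.

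The abundant contigs were somewhat shorter than the rest. They were ranked on a value divided by length, so their length is not independent of the choice and is a description only. Their median length was 670 bases, with quartiles of 390.5 and 997 bases, against 807 bases for the other 47468 contigs (quartiles 439 and 1436) and 746 bases for the 900 contigs next in rank. Of the 100, 63 were shorter than the median of all contigs. The shortest was contig-6104000005 with 209 bases and the longest contig-6000019 with 4055 bases. The length class over 300 and up to 500 bases held 27 of the 100 and 8581 of all contigs, whereas contigs over 2000 bases numbered 3 of the 100 and 5954 of all. TPM divides by an effective length that is about 132 to 136 bases less than the contig, so the levels of the shortest contigs rest on a small divisor. There were 7 of the 100 with an effective length under 100 bases. Ranking by CPM, which scales counts to the library total without dividing by length, kept 61 of the 100.

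**Figure D2:**
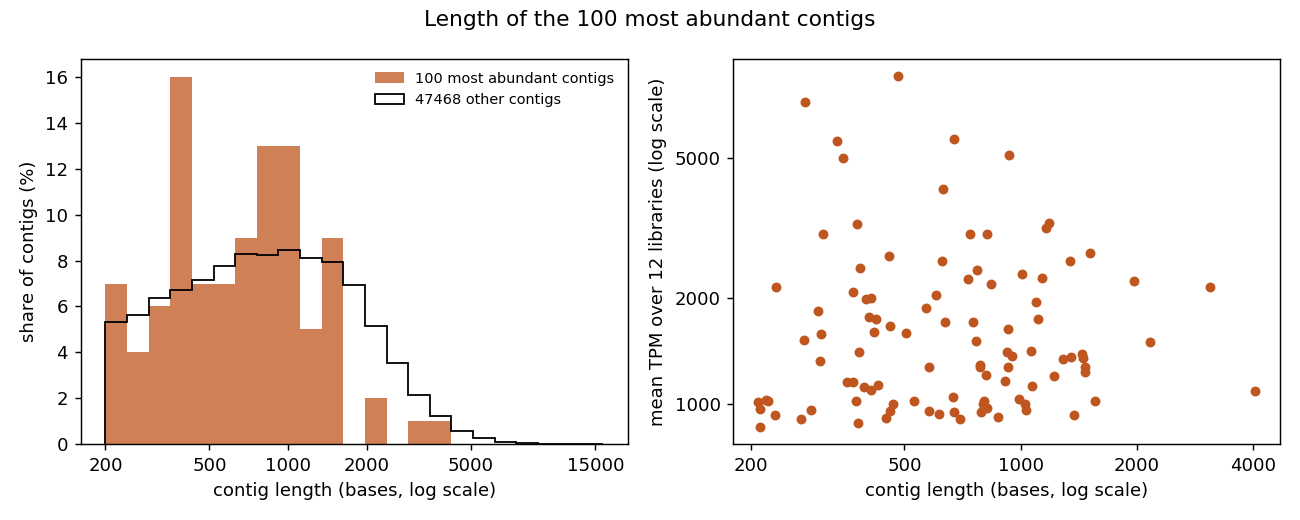
Contig length in bases on a log axis: the distribution for the 100 most abundant contigs and for the 47468 other contigs, and mean TPM (log axis) against length for the 100. The 100 have a median of 670 bases and the others of 807 bases.

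The leading positions changed hands between libraries. Contig-398000009 was first in S1D replicate 2, S1C replicate 1 and S2D replicate 1, and contig-2202000017 in S1D replicates 1 and 3 and S2D replicate 2. The other 6 libraries had 6 different leaders. Of the 100 contigs, 9 were among the first 100 of every library and 82 among the first 100 of at least 6 libraries. In single libraries the number found in that library's own first 100 was 76, 74 and 73 in S1D, against 70, 75 and 50 in S1C, and 78, 77 and 57 in S2D, against 34, 77 and 52 in S2C. Ranked by group means, 40 of the 100 were among the first 100 of all 4 groups and 7 in a single group. The first 100 contigs of S1D and S1C had 62 in common and those of S2D and S2C 53. Across samplings, S1D and S2D had 73 in common, S1C and S2D 72, S1C and S2C 55, and S1D and S2C 42. The group mean was highest in S1D for 55 of the 100 contigs, in S1C for 12, in S2D for 10 and in S2C for 23. The same was not counted over all contigs, and the list favours contigs that were high in some group. These numbers are therefore a description only.

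Contig-398000009, of 482 bases, had the highest mean over the 12 libraries. It had 8079, 15448 and 16184 TPM in S1D, against 12703, 2471 and 6655 TPM in S1C. It had 13986, 11717 and 7811 TPM in S2D, against 773, 5299 and 1872 TPM in S2C. The S2D libraries all lay above the S2C libraries, whereas S1D and S1C overlapped. Its drought effect averaged over both samplings was a log2 fold change of 1.43 (SE 0.54, n = 3 per group), with an adjusted p of 0.126 in edgeR's quasi-likelihood test with Benjamini-Hochberg adjustment and 0.0231 to 0.231 over 22 alternatives, 3 of them past the threshold.

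Contig-2202000017, of 277 bases, reached the highest value of any of the 5 leading contigs. It had 10868, 12745 and 31155 TPM in S1D, against 884, 1858 and 1093 TPM in S1C. It had 7592, 14268 and 1741 TPM in S2D, against 953, 2756 and 737 TPM in S2C. S1D and S1C were far apart, and at the second sampling S2D replicate 3 lay below S2C replicate 2. Averaged over both samplings, the log2 fold change of drought against control was 3.11 (SE 0.58), with an adjusted p of 0.0299 (edgeR's quasi-likelihood test, Benjamini-Hochberg), and it ran from 2.75 to 3.84 over the 22 alternatives, with adjusted p from 8.12e-07 to 0.0963.

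Contig-186000024, of 671 bases, had 4481, 9281 and 11832 TPM in S1D, against 8890, 1569 and 4218 TPM in S1C. It had 9596, 7765 and 5149 TPM in S2D, against 555, 3280 and 1314 TPM in S2C. It followed contig-398000009 closely, which was 1.37 to 1.80 times as abundant in every library. The mean drought effect was 1.43 (SE 0.55) on the log2 scale, with an adjusted p of 0.132 in edgeR's quasi-likelihood test and 0.0345 to 0.254 over the alternatives.

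Contig-4298000018, of 335 bases, had 7289, 5579 and 4572 TPM in S1D, against 7148, 6485 and 3047 TPM in S1C. It had 4105, 4434 and 3438 TPM in S2D, against 2665, 13471 and 5127 TPM in S2C. The groups overlapped at both samplings, and S2C replicate 2 held the highest value. The mean drought effect of -0.41 (SE 0.38) had an adjusted p of 0.519 in edgeR's quasi-likelihood test, and without the 3 libraries that stood apart it was 0.058.

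Contig-181000001, of 931 bases, had 8991, 6619 and 5932 TPM in S1D, against 3383, 9025 and 2197 TPM in S1C. It had 6041, 6052 and 1946 TPM in S2D, against 1117, 7607 and 2607 TPM in S2C. In both controls replicate 2 lay above the other libraries of its group, and S2D replicate 3 lay below the rest of S2D. The mean drought effect was 0.43 (SE 0.53) on the log2 scale with an adjusted p of 0.644 in edgeR's quasi-likelihood test. Over the alternatives it ran from 0.21 to 1.43 with adjusted p from 0.0287 to 0.855, and the fit without the 3 libraries that stood apart, at 1.43, was the only one past the threshold.

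**Figure D3:**
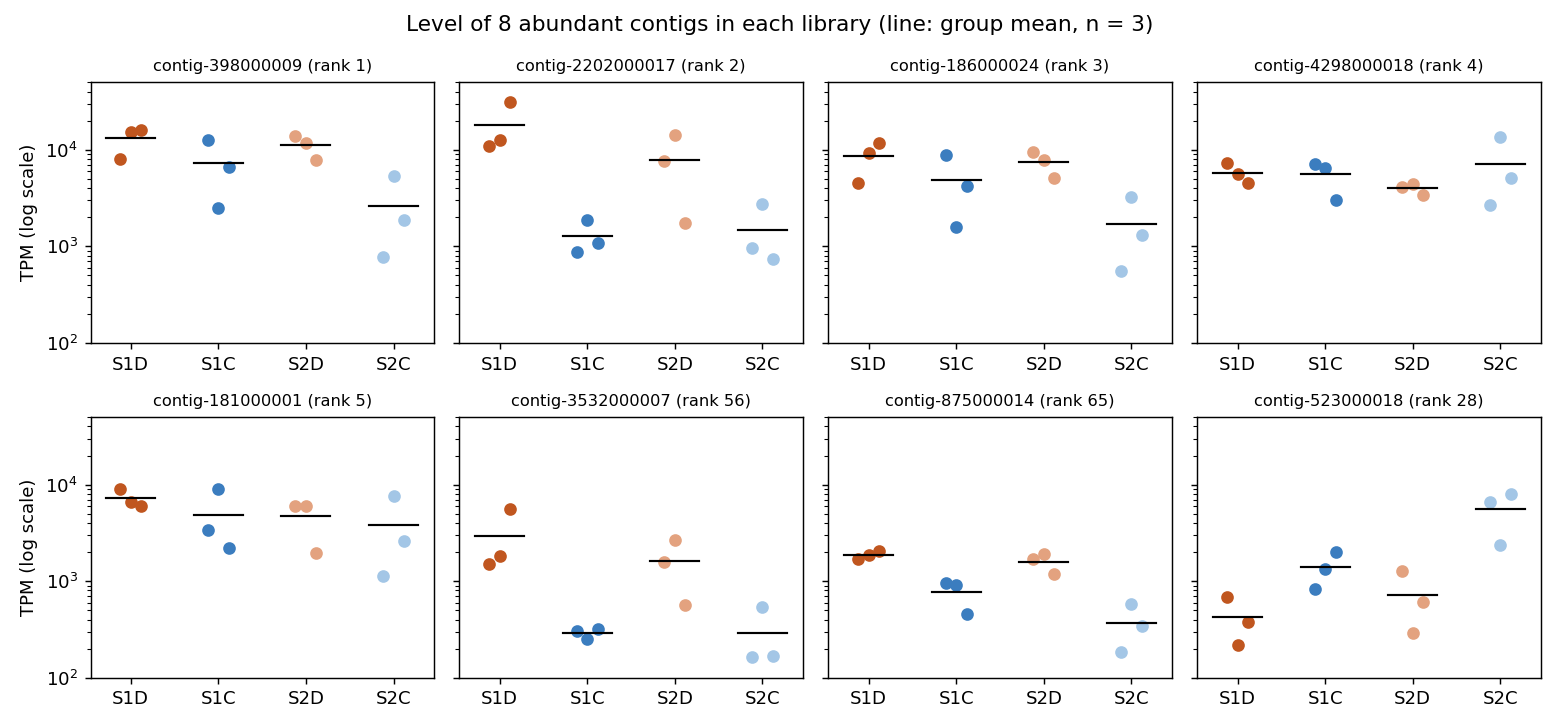
TPM on a log axis of 8 contigs in each library of S1D, S1C, S2D and S2C: the 5 with the highest mean TPM and the 3 named for the mean drought effect. Contig-2202000017 had 10868 to 31155 TPM in S1D and 884 to 1858 TPM in S1C.

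Whether the abundant contigs changed under drought was tested with edgeR's quasi-likelihood test on the estimated counts of all contigs, with Benjamini-Hochberg adjustment over the 33602 tested and a threshold of 0.05. Averaged over both samplings, 9 of the 100 changed, 7 of them higher and 2 lower in drought, while 3.6% of all contigs tested passed the threshold, 1.5% higher and 2.1% lower. Of these 9, 6 of the 7 that rose had a mean below the last contig on the list in the control libraries, and both that fell had one in the drought libraries, so they were among the 100 through the libraries where they were high and nothing is read from the excess over the background. At an unadjusted p under 0.05 the numbers were 31 of the 100 and 25.8% of all. DESeq2 called 27 of the 100, 13 higher and 14 lower, and 12% of its 45796 contigs, 2205 higher and 3302 lower. Its contigs did not pass through edgeR's low-count filter, so its shares here and below have another base than edgeR's. For limma-trend on log2(TPM + 1) the number was 11, 8 higher and 3 lower (4.73% of all). The median log2 fold change was 0.28 over the 100 and -0.01 over all contigs. The size of change was over 1 on the log2 scale in 20 contigs and under -1 in 11, with a median standard error of 0.46.

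The 7 contigs that rose were contig-5563000022 (log2 fold change 4.06), contig-1415000019 (3.32), contig-2202000017 (3.11), contig-3532000007 (2.90), contig-237000015 (2.88), contig-3352000024 (2.63) and contig-875000014 (1.65), and the 2 that fell were contig-523000018 (-2.41) and contig-568000011 (-1.92). Their adjusted p-values in edgeR's quasi-likelihood test lay between 0.0282 and 0.0464. In 6 of the 7 that rose, S1D replicate 3 was the highest of the 12 libraries, and in 5 of the 7 S2D replicate 3 lay below S2C replicate 2. The adjusted p-values depended on single libraries, as with S1D replicate 2 or 3, S1C replicate 3, S2D replicate 1 or 2, or S2C replicate 1 or 3 left out 0 of the 100 passed, and without S1C replicate 1, S1D replicate 1 or S1C replicate 2 the number was 4, 5 and 8 in that order. Calls over all contigs moved likewise, to at most 0.0283% in the fits with 0 and to 1.47, 1.03 and 1.67% in the other 3. The fold changes of the 9 kept their direction over the 22 alternatives, for example 2.90 to 3.89 for contig-1415000019. Without S2D replicate 3 it was 18 (6.1% of all contigs), without S2C replicate 2 it was 28 (13.4% of all), and without the 3 libraries that stood apart it was 52, with 36 higher and 16 lower, where 20% of all contigs passed, 10.2% higher and 9.82% lower. The 9 were among the calls in each of these 3 fits.

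Contig-3532000007, of 787 bases and ranked 56, was one of the contigs that rose with no overlap at either sampling. It had 1491, 1838 and 5566 TPM in S1D, against 302, 250 and 322 TPM in S1C. It had 1587, 2694 and 569 TPM in S2D, against 164, 534 and 169 TPM in S2C. The margin at the second sampling was narrow, between S2D replicate 3 and S2C replicate 2. Its means of 291 TPM in S1C and 289 TPM in S2C lay below the last contig on the list. It was thus listed through the drought libraries, and it was named for its adjusted p and lack of overlap, so these are a description. Its log2 fold change was 2.90 (SE 0.53) with an adjusted p of 0.0291 in edgeR's quasi-likelihood test, 2.42 to 3.37 over the alternatives with adjusted p from 9.11e-07 to 0.0963.

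Contig-875000014, of 355 bases and ranked 65, was the other. It had 1686, 1861 and 2074 TPM in S1D, against 956, 907 and 454 TPM in S1C. It had 1700, 1899 and 1177 TPM in S2D, against 185, 585 and 347 TPM in S2C. The drought libraries stayed above 1000 TPM and the control libraries below it. Its means of 772 TPM in S1C and 372 TPM in S2C lay below the last contig on the list, and it was named by the same rule. Its log2 fold change was 1.65 (SE 0.30) with an adjusted p of 0.0282 in edgeR's quasi-likelihood test, 1.48 to 1.99 over the alternatives with adjusted p from 7.22e-06 to 0.0963.

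Contig-523000018, of 604 bases and ranked 28, was the only called contig that fell with no overlap at either sampling. It had 687, 218 and 374 TPM in S1D, against 825, 1337 and 2010 TPM in S1C. It had 1265, 288 and 614 TPM in S2D, against 6540, 2352 and 7971 TPM in S2C, where it led replicate 3. Its means of 427 TPM in S1D and 723 TPM in S2D lay below the last contig on the list. It was thus listed through the control libraries, and it was named by the same rule. Its log2 fold change was -2.41 (SE 0.52) with an adjusted p of 0.0379 in edgeR's quasi-likelihood test, -2.78 to -2.18 over the alternatives with adjusted p from 7.74e-05 to 0.113.

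At the first sampling alone, 0 of the 100 passed the adjusted threshold in edgeR's quasi-likelihood test, as did 0% of all contigs, and 22 of the 100 had an unadjusted p under 0.05 against 13.2% of all. DESeq2 called 13 of the 100 (2.72% of all its contigs) and limma-trend on log2(TPM + 1) called 0 (0.0744% of all). The median log2 fold change was 0.47 over the 100 and -0.04 over all. In TPM, 34 of the 100 had S1D and S1C libraries that did not overlap, against 22.8% of all contigs tested. Of these, 20 were higher in S1D, where the background was 8.51%, and 14 were lower, where it was 14.3%. Without the 3 libraries that stood apart, 19 of the 100 passed in edgeR, 16 higher and 3 lower, with 3.22% of all contigs, 1.44% higher and 1.79% lower.

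At the second sampling, 0 of the 100 passed in edgeR's quasi-likelihood test, with 0.00893% of all contigs, and 24 of the 100 had an unadjusted p under 0.05 against 22.6% of all. DESeq2 called 19 of the 100 (9.2% of all) and limma-trend on log2(TPM + 1) called 0 (0.682% of all). Libraries of S2D and S2C did not overlap in 14 of the 100, against 24.5% of all contigs. There were 6 higher in S2D against a background of 15.9%, and 8 lower against 8.56%. Leaving out S2C replicate 2 gave 12 calls among the 100 where 11.2% of all passed, and leaving out the 3 libraries that stood apart gave 36, 22 higher and 14 lower, where 13.8% of all passed, 7.64% higher and 6.13% lower. The median log2 fold change was 0.04 over the 100 and 0.04 over all contigs. It turned on single libraries, being 0.70 over the 100 and 0.15 over all without S2C replicate 2, -0.20 and 0.06 without S2C replicate 1, -0.11 and 0.01 without S2C replicate 3, -0.021 and 0 without S2D replicate 2, 0.13 and -0.08 without S2D replicate 3, and 0.65 and 0.04 without the 3 libraries that stood apart. With all libraries on log2(TPM + 1) the medians were 0.40 and 0.18, so the scaling moved the median of all contigs as well, and relative to all contigs the 100 lay at -0.0022 and 0.22 on the 2 scales.

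Drought and control libraries did not overlap in the same direction at both samplings in 5 of the 100, against 5.34% of all contigs tested, 2.91% higher and 2.43% lower. These were contig-3532000007 and contig-875000014 in the higher direction and contig-523000018, contig-4178000013 and contig-786000014 in the lower. In the opposite direction at the 2 samplings there were 0 of the 100, against 0.86% of all. Contig-4178000013 had 1159, 1430 and 1104 TPM in S1D, against 1787, 1438 and 2269 TPM in S1C, and 1523, 1322 and 1387 TPM in S2D, against 2669, 2498 and 2544 TPM in S2C. Its mean drought effect of -0.81 (SE 0.23) had an adjusted p of 0.0642 in edgeR's quasi-likelihood test, and without the 3 libraries that stood apart it was -0.92 with an adjusted p of 0.0207. Contig-4178000013 and contig-786000014 were named after their values were seen.

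The drought effects at the 2 samplings were compared with an interaction term. The difference of the effects passed for 0 of the 100 contigs in edgeR's quasi-likelihood test, as for 0% of all, and 8 of the 100 had an unadjusted p under 0.05 against 9.17% of all, while DESeq2 called 2 (0.921% of all) and limma-trend on log2(TPM + 1) called 0 (0.0119% of all). The median difference, second minus first sampling, was -0.54 on the log2 scale over the 100 and 0.05 over all contigs. It was -0.08 over the 100 and 0.24 over all on log2(TPM + 1), and -0.015 and 0.22 without S2C replicate 2 alone. With any other single library left out, it lay between -0.80 and -0.36 over the 100. The ends were the fits without S2C replicate 1 (0.06 over all) and without S1D replicate 1 (0.10 over all). Without the 3 libraries that stood apart the median difference was -0.21 over the 100, again with 0 calls.

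**Figure D4:**
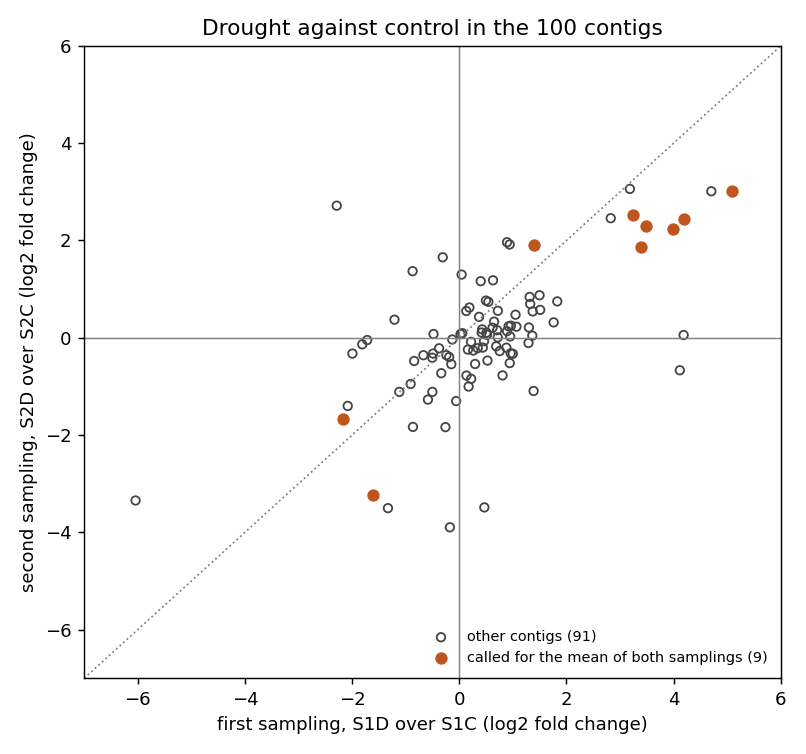
Log2 fold change of drought against control at the second sampling plotted against that at the first for the 100 most abundant contigs. Filled points are the 9 contigs with an adjusted p under 0.05 for the mean of both effects (edgeR), 7 higher and 2 lower, and open points are the other 91.

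Between samplings within a treatment, 0 of the 100 passed in edgeR's quasi-likelihood test for S2D against S1D, where 0.00298% of all contigs did, and 1 had an unadjusted p under 0.05 against 6.29% of all. In S2C against S1C, 0 passed where 0.0208% of all contigs did, and 11 had an unadjusted p under 0.05 against 17% of all. DESeq2 called 1 of the 100 for S2D against S1D (0.753% of all) and 8 for S2C against S1C (4.95% of all). Without S2C replicate 2, 10 of the 100 passed for S2C against S1C, with 8.75% of all contigs, and without the 3 libraries that stood apart 14 did, 6 higher and 8 lower, with 9.54% of all, 4.61% higher and 4.93% lower. Libraries did not overlap between S2D and S1D in 20 of the 100, 5 higher and 15 lower in S2D, against 13.3% of all, 6.62% higher and 6.68% lower. They did not overlap between S2C and S1C in 17, 10 higher and 7 lower in S2C, against 22.4% of all, 4.66% higher and 17.8% lower. The median log2 fold change of S2C against S1C was 0.29 over the 100 and -0.12 over all contigs, but on log2(TPM + 1) these medians were -0.07 and -0.31, so that the sign for the 100 turned with the scaling while they lay above all contigs by 0.41 and 0.24. Without S2C replicate 2 the medians were -0.16 over the 100 and -0.29 over all.

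Among the 100, the level of a contig could vary widely between libraries. The highest library exceeded the lowest by a median of 9.41-fold, against 6.06-fold for 896 of the 900 contigs next in rank that were above 0 in every library, and the range over the 100 was 2.08-fold to 2445-fold. There were 12 contigs with a range under 3-fold, 48 with a range over 10-fold and 7 with a range over 100-fold. The coefficient of variation within groups, pooled over the 4 groups, had a median of 55.3% in the 100 and 41.4% in the 900 contigs next in rank. Contig-3370000015, the steadiest with 13.5%, had 1032, 694 and 949 TPM in S1D, against 1242, 1406 and 1441 TPM in S1C, and 1088, 1100 and 1122 TPM in S2D, against 1009, 1363 and 1364 TPM in S2C. Contig-147000024, the most variable, with 134%, had 1005, 63.9 and 2.24 TPM in S1D, against 458, 65.0 and 166 TPM in S1C, and 2.99, 20.0 and 5477 TPM in S2D, against 2855, 214 and 1148 TPM in S2C. It entered the list through few libraries, since S2D replicate 3 alone held 47.7% of its summed TPM. The longest contig, contig-6000019, had 550, 236 and 726 TPM in S1D, against 465, 1550 and 1060 TPM in S1C, and 599, 1071 and 341 TPM in S2D, against 259, 4537 and 1645 TPM in S2C.

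Several of the 100 kept nearly fixed ratios to one another. Of 4950 pairs, 17 had a log2 ratio with an SD under 0.2 over the 12 libraries, and 26 contigs took part in them. Contig-4298000018 was 1.18 to 1.50 times as abundant as contig-5600000002 in every library, with a correlation of 0.988 on log2 TPM over the 12. Contig-2202000017 was 1.23 to 2.03 times as abundant as contig-1415000019, with a correlation of 0.995. These pairs were picked for their closeness, the libraries share the same 4 groups, and RSEM splits a read that fits more than 1 contig between them, which ties the values of contigs with common sequence to each other. Of the 9 called contigs, contig-2202000017, contig-1415000019, contig-3352000024, contig-5563000022 and contig-3532000007 moved closely together, with correlations of 0.972 to 0.995 between the first and the others, so they are not independent of each other. Over all pairs the median correlation was 0.209, and 40.6% of pairs were below 0.

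Grouping the 100 by these correlations, a description made after the values were seen, gave a set of 51 contigs led by contig-2202000017. This set held 16.7, 15.2 and 18.1% of TPM in S1D, against 6.49, 10.6 and 3.50% in S1C, and 10.6, 14.0 and 4.83% in S2D, against 2.92, 12.6 and 4.81% in S2C. In this set, S1C replicate 2 and S2C replicate 2 were the highest of their groups and S2D replicate 3 the lowest of S2D. The S1C libraries were spread about evenly, with medians of -0.27, 0.52 and -1.12 in log2 TPM relative to each contig's mean. A second set of 18 contigs, led by contig-404000012, ran the other way and held 1.37, 1.15 and 0.844% in S1D, against 2.49, 1.50 and 3.08% in S1C, and 1.46, 1.14 and 4.26% in S2D, against 5.86, 2.26 and 5.28% in S2C. A set of 7 led by contig-398000009 held 2.27, 3.39 and 4.04% in S1D, against 3.64, 0.838 and 1.67% in S1C, which overlapped, and 3.36, 3.09 and 2.57% in S2D, against 0.301, 1.65 and 0.572% in S2C. S2C replicate 2 was the highest S2C library for 70 of the 100 contigs, against 47.9% of all contigs tested, and S2D replicate 3 the lowest S2D library for 65, against 34.5% of all. Such a lean was not limited to the 3 libraries that stood apart. S2C replicate 1 was the lowest S2C library for 67, against 41.0% of all. S1D replicate 1 was the highest S1D library for 54, against 32.3% of all.

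**Figure D5:**
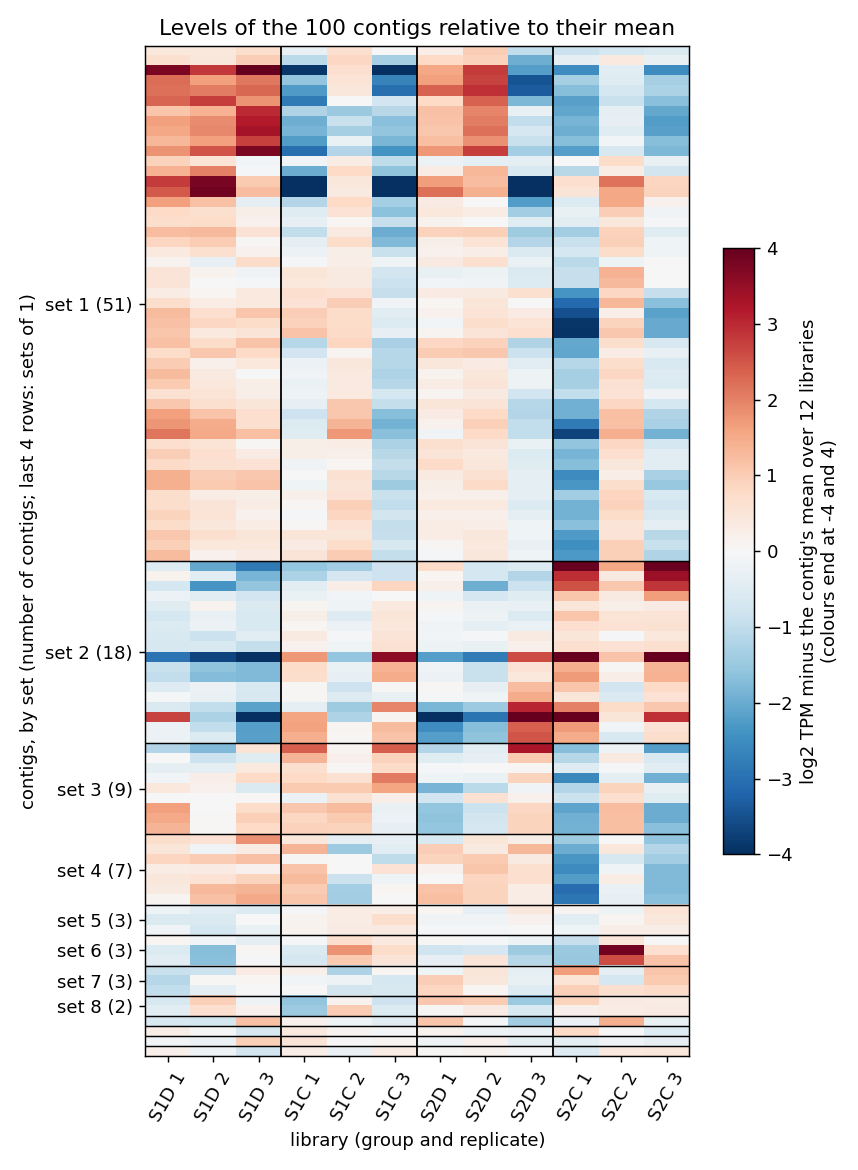
Log2 TPM of each of the 100 contigs relative to its own mean over the 12 libraries, with contigs in rows ordered by set and libraries in columns ordered S1D, S1C, S2D and S2C. In the set of 51 contigs, the median value was 0.52 to 1.08 in S1D, 0.72 in S2C replicate 2 and -0.57 in S2D replicate 3.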

How the data were processed

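Leaf mRNA of 12 *Q. ilex* seedling samples was sequenced (3 per group), with group and replicate read from the labels. Each deposited estimated count is the number of reads RSEM gave a contig, without scaling. Deposited TPM values divide these counts by effective length and scale each library to the same sum, and the deposited FPKM values divide by effective length and by reads. The submitters' processing notes name RSEM and cutadapt 1.9. Which assembler and aligner were used is not given in these sources.

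The members and all lists were chosen with earlier results of these data known. Counts, rounded to whole numbers, were fitted with edgeR 4.0.16 (R 4.3.3): TMM, the default low-count filter by group, which kept 33602 contigs, and 1 quasi-likelihood fit of the 4 groups, which also gave the mean drought effect. The standard error is the log2 fold change divided by the square root of F. Depth was 11239487 to 33384307 counts, and the common biological coefficient of variation was 0.685. The fit was tested on simulated data. P-values set a difference between groups against the spread between these samples, which the labels do not tie to single plants.

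Named by rule were the 5 contigs of highest mean TPM, those on both sides of the boundary of the list, the shortest, the longest, the steadiest and the most variable, and up to 2 that rose and 2 that fell with the largest mean drought effect, past the threshold with no overlap at either sampling. The alternatives tried were limma 3.58.1 with a trend, on TPM in log2 with 1 or 0.1 added, DESeq2 1.42.0, RLE and upper-quartile factors, TMM without the 100 contigs, other filters, the replicate number as a block, other rankings, the share of counts, contigs under 100 bases of effective length left out, and leaving out each library. Leaving out 3 libraries together was added after the data were seen, and left S1C, S2C and S2D with 2 libraries each. Replicates of a group differed by a chi-square of at least 65.6 per degree of freedom, so each counted as its own library.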

Additional observations from a re-analysis of the deposited data

How the results depend on the processing

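Leaving out each library in turn gave 0 to 28 calls among the 100 contigs for the mean drought effect (0 to 13.4% of all contigs), 0 to 12 at the second sampling (0 to 11.2% of all), 0 to 10 for S2C against S1C (0 to 8.75% of all), and 0 for the first sampling, the difference of effects and S2D against S1D. DESeq2 called 13 at the first sampling (2.72% of all its contigs), 19 at the second (9.2%) and 27 for the mean effect (12%). It called 2 for the difference (0.921%), 8 for S2C against S1C (4.95%) and 1 for S2D against S1D (0.753%). A minimum of 10 counts in every library gave 4 calls at the second sampling (2.37% of all contigs). For the mean effect it gave 17, 9 higher and 8 lower (11.3% of all, 986 higher and 1316 lower). Leaving out the 3 libraries that stood apart was chosen after seeing the data. It gave 19 calls at the first sampling (3.22% of all contigs) and 36 at the second (13.8%). There were then 52 calls for the mean effect (20%) and 14 for S2C against S1C (9.54%). In that fit the mean effect of contig-4298000018 turned to 0.058. The share of counts was 15.8% in S1D, 11.0% in S1C and 12.1% in S2D, and ranking by CPM kept 61 of the 100. The cause of these shifts was not tested.

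With the replicate block the mean effect had 13 calls (3.44% of all contigs), the 9 included, and the other comparisons 0. Same-numbered libraries had 18 correlations of deviations, -0.11 to 0.21, with 6 above 0.1, and 6 of 12 libraries correlated best with their own number, so the numbers were not treated as pairs. RLE, upper-quartile and TMM factors without the 100 contigs gave the same 9 calls. A fit of only the groups compared is the same fit for the mean effect and the difference, which use all 12 libraries. Depth was ample for most of these contigs, with a lowest value of 44 counts in any library.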

Other observations

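Contigs outside the 100 also reached the first 100 of single libraries. There were 213 such contigs, of which 105 did so in exactly 1 library. Their number was 24, 26 and 27 in S1D, against 30, 25 and 50 in S1C, and 22, 23 and 43 in S2D, against 66, 23 and 48 in S2C. In S2C replicate 1 they held 11.1% of TPM, close to the 11.7% held there by the 100 contigs of highest mean. Of those 66, 31 were also in the first 100 of S2C replicate 3 and 1 in that of S2C replicate 2. Contig-258000021, the leading contig of this kind in S2D replicate 3, had 5040 TPM there, rank 7 in that library, and a mean of 809 TPM over the 12. Contig-3454000002, of 296 bases, had 4236 TPM in S2C replicate 1, rank 5, and a mean of 753 TPM. These contigs were chosen after their values were seen.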
